A study of Mus musculus with 4 samples.

Results

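The receptors for glutamate, GABA and glycine were followed in eye tissue of wild-type and Anp32b knockout mouse embryos. Members were all genes in the 4 deposited tables whose symbol names a subunit of an ionotropic glutamate receptor, a metabotropic glutamate receptor, a GABA-A receptor or a glycine receptor. This rule uses names and no measured value, and it gave 48 of the 18702 genes listed: 4 AMPA, 7 NMDA, 5 kainate, 8 metabotropic glutamate, 19 GABA-A and 5 glycine receptor genes. GABA-B receptors and delta glutamate receptors lie outside it. Total RNA of eye tissue from C57BL/6 embryos was sequenced in 4 libraries, 2 labelled wild type (Anp32b+/+) and 2 labelled knockout (Anp32b−/−). The sources used here do not give the embryonic stage, the number of embryos behind a library, the design of the null allele, or whether the replicate libraries came from different embryos. The p-values thus weigh group differences against a spread between 2 samples that may be technical.

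Glutamate is the main excitatory transmitter of the retina and brain. It opens AMPA, NMDA and kainate receptors, cation channels built from 4 subunits, and it also acts on metabotropic receptors, which signal through G proteins. GABA and glycine open chloride channels made of 5 subunits, and in immature neurons, where chloride inside the cell is high, these channels can depolarise. In the developing retina the receptors appear on ganglion, amacrine and horizontal cells before photoreceptors and bipolar cells have formed mature synapses.

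The depth of each library, estimated from low values in the tables, lay between 18050000 and 18230000 fragments. Anp32b stood at 163.18 and 179.12 FPKM (fragments scaled by transcript length and library size, so that levels of different genes can be compared) in the wild type and fell to 94.53 and 92.67 FPKM in the knockout, so its RNA was reduced and not lost. Pax6, the eye regulator in the title of the series, stood at 160.94 and 158.43 FPKM against 107.76 and 110.97 FPKM. Markers of lens, retina and the tissue around the eye were all present in the libraries. The lens list was lower in the knockout (10 of 10 genes), and the skeletal muscle list (9 of 10 higher) and the connective tissue list (8 of 8 higher) were higher. Of 13887 genes averaging 1 FPKM or more over the libraries, 54.6% were called by limma (Benjamini-Hochberg adjusted p under 0.05), 33.5% higher and 21.1% lower in the knockout. In counts these are 4654 higher and 2932 lower. The split became 6926 and 1667 with the deposited TPM values, 3879 and 3791 with median-of-ratios scaling, and 3533 and 4330 with libraries scaled without crystallin and haemoglobin genes.

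Receptor genes were expressed at low levels, and those that changed mostly fell. Of the 48 members, 23 averaged 1 FPKM or more and were tested. Of these 23, 12 fell, which is 52.2% against 21.1% of all genes tested, and 2 rose, which is 8.7% against 33.5% of all genes tested. The other 9 did not pass the threshold. A gene high in 1 group only can pass the filter through that group, so the 48 members were also fitted with no filter, where 17 were called lower and 5 higher, against 14.8% lower and 24.4% higher of all 18702 genes (39.1% in either direction). The median log2 difference of the 23 was −0.30, and that of all genes tested was 0.04. All differences here are knockout minus wild type on the log2(FPKM + 1) scale, which understates changes at low levels, and SDs on FPKM means have n = 2. In whole tissue, fewer cells that carry a receptor and less receptor RNA per cell cannot be told apart.

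Counted by whether the groups overlapped, 16 of the 23 tested members had both knockout values below both wild-type values, where the share over all genes tested was 32.4% (77.9% for separation in either direction). In 3 members both knockout values were above, where the share over all genes was 45.6%. The groups overlapped in the remaining 4, namely Gria3, Grik5, Gabra3 and Glrb. The direction of all 14 called members and their side of the threshold held with TPM, with both rescalings, with a pseudocount of 0.1 and with no filter on low values.

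**Figure D1:**
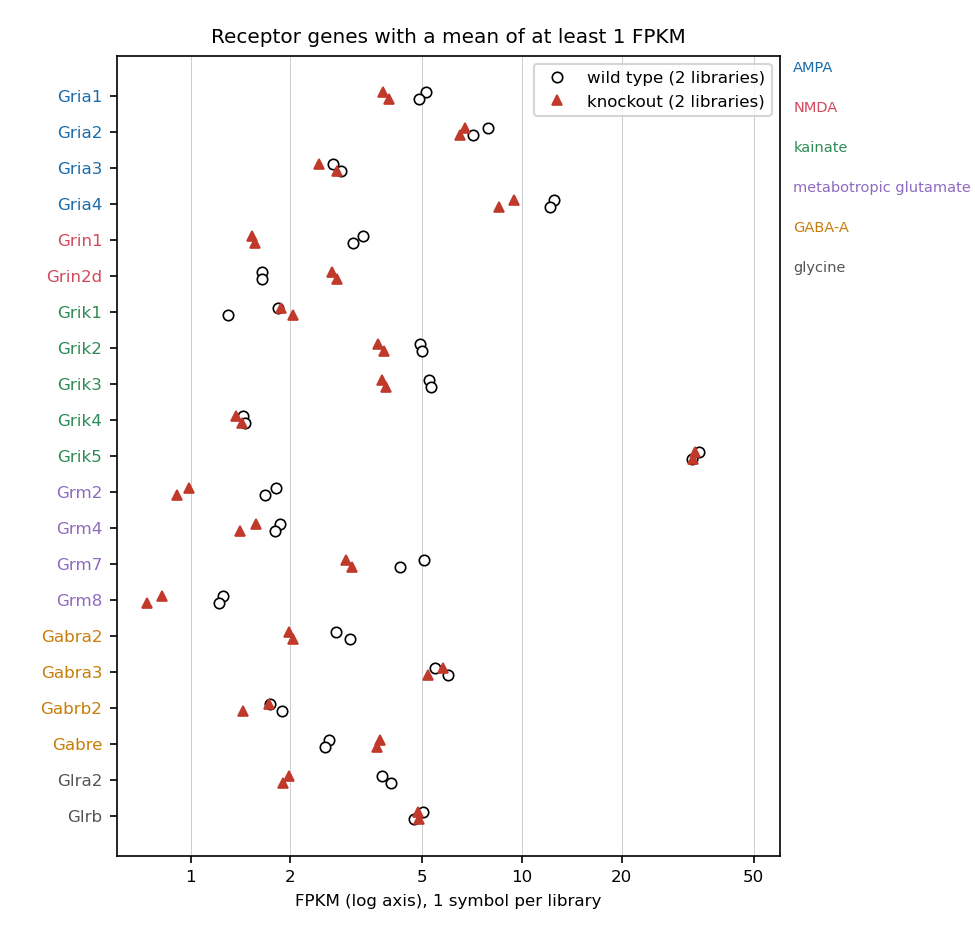
FPKM of 21 of the 23 receptor genes averaging 1 FPKM or more, on a log axis, with 1 symbol per library (open circles, 2 wild-type libraries; triangles, 2 knockout libraries) and gene names coloured by receptor class. Grik5 lies near 33 FPKM in all 4 libraries, far to the right of the other genes, and Grin2d and Gabre are the called genes whose triangles lie to the right of their circles.

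**Figure D2:**
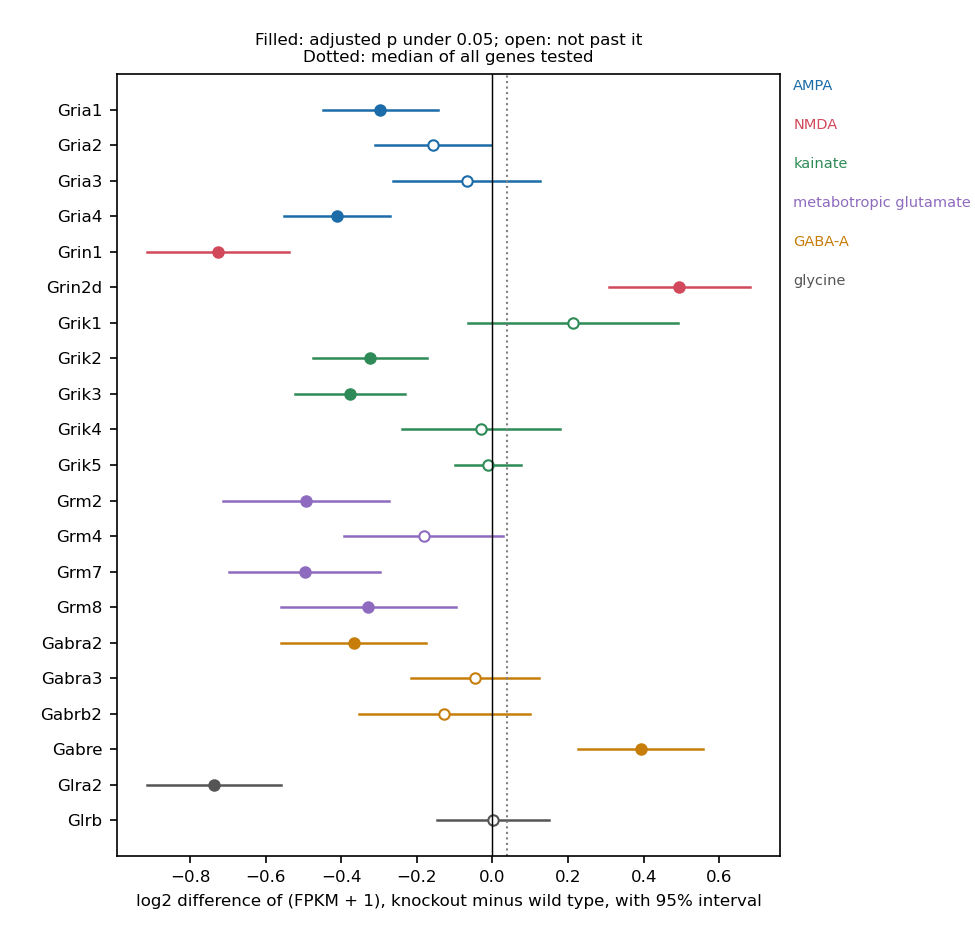
Log2 difference of (FPKM + 1), knockout minus wild type, for the same 21 genes, with 95% intervals from the limma fit. Filled symbols passed an adjusted p of 0.05, and the dotted line is the median of all 13887 genes tested. Filled symbols lie left of 0 for 10 genes and right of it for Grin2d and Gabre.

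AMPA receptors carry most fast excitatory transmission, and their 4 subunit genes were all expressed. Of the 4 genes, 2 fell and 2 did not pass the threshold. Gria4, the most abundant, gave 12.46 and 12.11 FPKM in the wild type and 9.48 and 8.51 FPKM in the knockout. The groups did not overlap, and the mean fell to 73.2% of its wild-type level (log2 difference −0.41, SE 0.06, limma adjusted p = 0.0011). Gria1 stood at 5.12 and 4.88 FPKM against 3.80 and 3.97 FPKM, again without overlap (−0.30, SE 0.06, limma adjusted p = 0.0072). The Gria1 call was lost without knockout replicate 1 (adjusted p = 0.0514), which left 1 AMPA gene called.

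Gria2 encodes the subunit that, after RNA editing, keeps AMPA channels nearly closed to calcium. The wild type gave 7.91 and 7.11 FPKM and the knockout 6.75 and 6.49 FPKM. Both knockout values were the lower ones, but the difference did not pass the threshold (−0.16, 95% interval −0.31 to −0.0047, limma adjusted p = 0.0760). It did pass with libraries scaled without crystallin and haemoglobin genes (adjusted p = 0.0230), with median-of-ratios scaling (adjusted p = 0.0310) and without wild-type replicate 2 (adjusted p = 0.0463). Gria3 was at 2.69 and 2.85 FPKM against 2.44 and 2.76 FPKM, with overlapping groups. Summed over the class, AMPA genes reached 28.2 and 27.0 FPKM in the wild type and 22.5 and 21.7 FPKM in the knockout. The share of Gria4 in that sum, which does not depend on how libraries are scaled, went from 44.2% and 44.9% to 42.2% and 39.2%.

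NMDA receptors need an obligatory GluN1 subunit, from Grin1, together with GluN2 or GluN3 subunits, and most open fully only when the membrane is depolarised. In the knockout Grin1 fell and the GluN2D gene Grin2d rose. Grin1 (Entrez 14810, GRCm38 chromosome 2, positions 25291181 to 25319187, minus strand) was at 3.32 and 3.10 FPKM in the wild type and at 1.53 and 1.56 FPKM in the knockout. The mean fell to 48.1% of its wild-type level (−0.73, SE 0.08, limma adjusted p = 0.0003). Its exons share 1307 bases with the antisense gene Grin1os, and the sources used here do not say whether counting used strand. Grin1 and the glycine receptor gene Glra2 had the largest falls among tested members, so the 250 bases before their RefSeq start are printed, here for Grin1 and further on for Glra2, 5′ to 3′ on the gene's strand from the RefSeq table of GRCm38.p6.
Grin1, chr2:25319188-25319437, minus strand: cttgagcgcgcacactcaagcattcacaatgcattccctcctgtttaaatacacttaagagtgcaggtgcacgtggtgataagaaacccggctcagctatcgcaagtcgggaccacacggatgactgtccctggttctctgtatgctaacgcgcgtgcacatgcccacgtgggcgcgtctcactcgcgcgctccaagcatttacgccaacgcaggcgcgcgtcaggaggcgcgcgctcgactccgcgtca
Capitals would mark a GC box (GGGCGG on either strand, the site of Sp1 and related factors), and the Grin1 window holds none. It holds 27 CG dinucleotides, where the median over 32851 windows of this length in the RefSeq table was 6. A GC box was present in 32.7% of those windows.

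Grin2d (Entrez 14814, GRCm38 chromosome 7, positions 45831883 to 45878378, minus strand) encodes a GluN2 subunit that is typical of immature neurons and interneurons. It was at 1.64 FPKM in each wild-type library and at 2.67 and 2.77 FPKM in the knockout. The knockout mean was 1.66-fold higher (0.49, SE 0.08, limma adjusted p = 0.0017), and its exons share 643 bases with an antisense gene. No library scaling can alter the ratio of Grin2d to Grin1 within each library, which was 0.49 and 0.53 in the wild type and 1.75 and 1.78 in the knockout. Summed over the 4 GluN2 genes the ratio to Grin1 went from 0.86 and 0.96 to 2.40 and 2.56. The groups were apart in both ratios, but with 2 libraries a group an exact two-sided permutation test of any single value cannot give a p below 0.333.

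The other 5 NMDA genes were under 1 FPKM. Grin2b, the main GluN2 gene of the embryonic brain, was at 0.46 and 0.51 FPKM in the wild type and at 0.61 and 0.64 FPKM in the knockout. Grin2c was at 0.63 and 0.71 against 0.29 and 0.44 FPKM, and Grin3a, a GluN3 gene of developing neurons, at 0.88 and 0.97 against 0.71 and 0.73 FPKM. Knockout values were thus above the wild type for Grin2b and below it for Grin2c and Grin3a. In the limma fit with no filter Grin2c was called lower (adjusted p = 0.039). Grin2b (adjusted p = 0.099) and Grin3a (adjusted p = 0.079) were not called. Grin2a and Grin3b overlapped between the groups, and Grin3b shares 1059 exonic bases with Tmem259 on the opposite strand. As a share of the summed NMDA values, Grin1 went from 42.6% and 41.2% to 23.7% and 22.4%, and Grin2d from at most 21.8% to at least 39.7%.

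**Figure D3:**
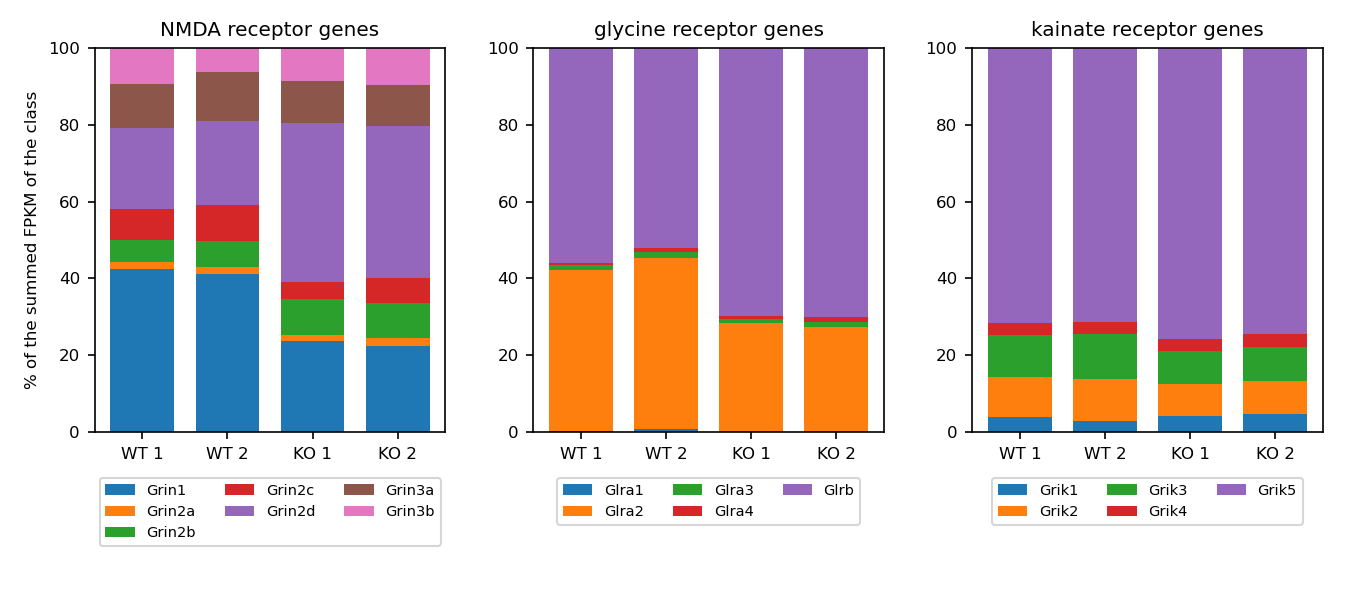
Share of each gene in the summed FPKM of its receptor class, in percent, for NMDA, glycine and kainate receptor genes, with 1 bar per library (WT, wild type; KO, knockout). Grin1 takes 42.6% and 41.2% of the NMDA bar in the wild type and 23.7% and 22.4% in the knockout, Glra2 takes 42.1% and 44.4% of the glycine bar against 28.4% and 27.3%, and Grik5 fills most of every kainate bar.

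Kainate receptors modulate transmitter release and excitability. Their core subunits, which can form channels alone, come from Grik1 to Grik3, whereas Grik4 and Grik5 encode partners of high affinity that need a core subunit. Of the 5 genes 2 fell and 3 did not pass. Grik3 had 5.24 and 5.31 FPKM in the wild type and 3.78 and 3.89 FPKM in the knockout (−0.38, SE 0.06, limma adjusted p = 0.0020). Grik2 had 4.92 and 5.0 FPKM against 3.68 and 3.84 FPKM (−0.32, SE 0.06, limma adjusted p = 0.0044). The knockout means were 72.7% and 75.8% of the wild-type level, and neither gene had overlapping groups.

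Grik5 had the highest level of all members. It was at 34.07 and 32.53 FPKM in the wild type and at 33.32 and 32.75 FPKM in the knockout, with overlapping groups and a difference of −0.01 (95% interval −0.10 to 0.08). Its share of the kainate sum was 71.7% and 71.3% in the wild type and 75.7% and 74.5% in the knockout. Grik4 was at 1.44 and 1.46 FPKM against 1.37 and 1.43 FPKM. The knockout values were lower, by less than the fit could call (−0.03, 95% interval −0.24 to 0.18). Grik1 was at 1.83 and 1.30 FPKM against 1.88 and 2.04 FPKM (0.21, limma adjusted p = 0.164). Without wild-type replicate 1, the higher of its wild-type values, it was called higher (adjusted p = 0.0436). The summed Grik1 to Grik3 level was 11.99 and 11.61 FPKM in the wild type and 9.34 and 9.77 FPKM in the knockout, and that of Grik4 and Grik5 was 35.5 and 34.0 against 34.7 and 34.2 FPKM.

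Metabotropic glutamate receptors fall into group I, such as Grm5, which couples to phospholipase C, and groups II (Grm2, Grm3) and III (Grm4, Grm6, Grm7, Grm8), which lower cyclic AMP and often sit on presynaptic endings. Of the 4 genes tested, 3 fell and Grm4 did not pass. Grm7, a presynaptic group III receptor and the most abundant, was at 5.05 and 4.28 FPKM in the wild type and at 2.94 and 3.07 FPKM in the knockout (−0.50, SE 0.08, limma adjusted p = 0.0024). Grm2 was at 1.81 and 1.68 FPKM against 0.99 and 0.91 FPKM (−0.49, SE 0.09, limma adjusted p = 0.0037). Neither gene had overlapping groups, and exons of both share bases with an antisense gene, 130 in Grm7 and 470 in Grm2. Grm8 was at 1.25 and 1.22 FPKM against 0.82 and 0.74 FPKM (−0.33, SE 0.10, limma adjusted p = 0.0252). Leaving out any 1 of the 4 libraries ended the Grm8 call, with adjusted p from 0.0598 to 0.0922. Grm2 and Grm8 reached the filter through their wild-type values, since their knockout values lay under 1 FPKM. Grm4 was at 1.86 and 1.80 FPKM against 1.58 and 1.41 FPKM and did not pass (−0.18, 95% interval −0.39 to 0.03).

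The remaining metabotropic genes were under 1 FPKM. The group I gene Grm5 was at 0.16 and 0.19 FPKM in the wild type and at 0.53 and 0.50 FPKM in the knockout, 2.94-fold higher on the means. Both knockout values lay above both wild-type values. Grm6, the receptor by which ON bipolar cells sense photoreceptor glutamate, was at 0.00 and 0.04 FPKM in the wild type and at 0.09 and 0.04 FPKM in the knockout. Grm3 was at 0.36 and 0.27 FPKM against 0.38 and 0.39 FPKM. Summed levels of group III were 8.16 and 7.34 FPKM in the wild type and 5.43 and 5.26 FPKM in the knockout, and those of group II were 2.17 and 1.95 against 1.37 and 1.30 FPKM.

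GABA-A receptors are the main inhibitory channels. Most combine alpha and beta subunits, which form the GABA site, with a gamma subunit that anchors the receptor at synapses, while delta, epsilon, pi and theta subunits replace gamma or beta in less common forms. Of 19 genes 6 were tested, of which 3 fell, 1 rose and 2 did not pass. Gabra2, an alpha subunit gene of embryonic and limbic neurons, was at 2.74 and 3.03 FPKM in the wild type and at 1.98 and 2.04 FPKM in the knockout (69.7% of the wild type, −0.37, SE 0.08, limma adjusted p = 0.0076). Both knockout values lay below both wild-type values.

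Gabra3, the most abundant alpha gene, did not pass the threshold. The wild type gave 5.45 and 5.96 FPKM and the knockout 5.77 and 5.22 FPKM, a difference of −0.05 (95% interval −0.22 to 0.12). Within each library the ratio of Gabra2 to Gabra3 was 0.50 and 0.51 in the wild type and 0.34 and 0.39 in the knockout. Gabrb2 was at 1.74 and 1.89 FPKM against 1.72 and 1.44 FPKM and did not pass (−0.13, limma adjusted p = 0.297). The 6 alpha genes summed to 10.75 and 11.03 FPKM in the wild type and to 10.13 and 9.65 FPKM in the knockout, which is 90.8% of the wild-type sum.

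Gabre encodes the epsilon subunit, which occurs in a few brain nuclei and in tissue outside the nervous system. It rose from 2.61 and 2.55 FPKM in the wild type to 3.74 and 3.66 FPKM in the knockout, without overlap (1.43-fold, 0.39, SE 0.07, limma adjusted p = 0.0029). Gabrp, the pi subunit gene known from epithelia, was at 0.37 and 0.41 FPKM against 1.04 and 0.70 FPKM, below the level tested. In the same libraries 7 of 8 surface epithelium genes and 8 of 8 connective tissue genes were higher, with medians of 0.93 and 1.09. The summed surface epithelium level was 604 and 626 FPKM in the wild type and 1196 and 1194 FPKM in the knockout, and that of connective tissue was 1345 and 1323 against 2929 and 2948 FPKM. The part of these tissues in the higher Gabre and Gabrp values was not tested.

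Most GABA-A genes lie in clusters that hold different subunit types side by side. Within the clusters on chromosomes 5 and X genes were called in opposite directions, while in the other clusters no gene was called higher. Differences for cluster genes come from the fit with no filter, since several were under 1 FPKM. On chromosome 5 (Gabrg1, Gabra2, Gabra4, Gabrb1, over 1398 kb) Gabra2 was lower (−0.37) and Gabra4 higher (0.23), with Gabra4 at 0.72 and 0.66 FPKM in the wild type and at 0.98 FPKM in each knockout library. Gabrg3, a gamma gene of another cluster, was lower (−0.55), and Gabra5 had 1 high wild-type value (1.35 and 0.74 against 0.83 and 0.80 FPKM) and was not called. On chromosome X (Gabre, Gabra3, Gabrq, over 587 kb) Gabre was higher (0.39) and the theta gene Gabrq lower (−0.28), on either side of Gabra3.

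**Figure D4:**
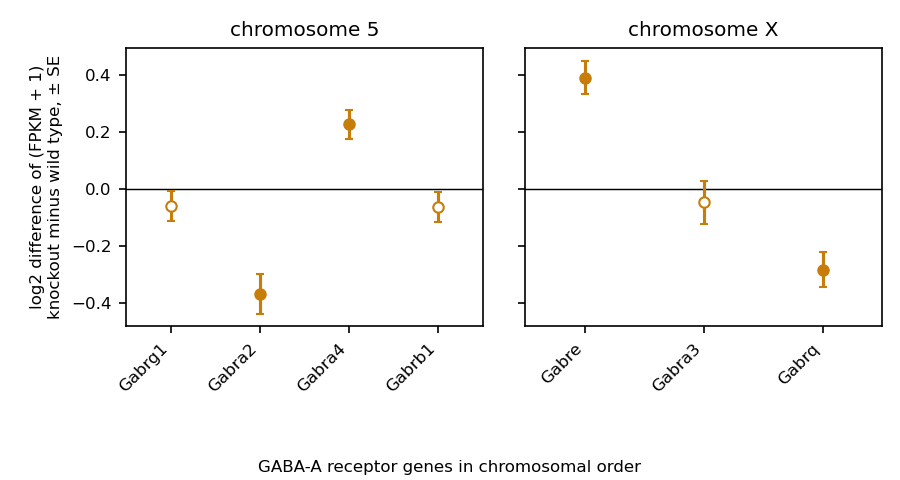
Log2 difference of (FPKM + 1), knockout minus wild type, with SE, for the GABA-A receptor genes of the clusters on chromosomes 5 and X, in chromosomal order, from the fit with no filter. Filled symbols had an adjusted p under 0.05. Gabra2 and Gabra4 on chromosome 5, and Gabre and Gabrq on chromosome X, lie on opposite sides of 0.

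Glycine receptors combine alpha subunits, which bind glycine, with the beta subunit from Glrb, which ties the channel to the scaffold protein gephyrin. Glra2, the alpha gene of embryonic neurons and of the retina, fell, and Glrb did not differ beyond its spread. Glra2 (Entrez 237213, GRCm38 chromosome X, positions 165129017 to 165327393, minus strand) was at 3.78 and 4.02 FPKM in the wild type and at 1.98 and 1.90 FPKM in the knockout. The mean fell to 49.7% of its wild-type level (−0.74, SE 0.07, limma adjusted p = 0.0002). On the log2(FPKM + 1) scale this was the largest fall among tested members, whereas as a ratio of means Grin1 fell further, to 48.1%. Glrb (Entrez 14658, GRCm38 chromosome 3, positions 80843599 to 80913660, minus strand) was at 5.02 and 4.72 FPKM against 4.86 and 4.89 FPKM (0.00, 95% interval −0.15 to 0.15). The ratio of Glra2 to Glrb was 0.75 and 0.85 in the wild type and 0.41 and 0.39 in the knockout. Their windows before the RefSeq start are shown because these partners of 1 receptor differed in this comparison, with any GC box in capitals.
Glra2, chrX:165327394-165327643, minus strand: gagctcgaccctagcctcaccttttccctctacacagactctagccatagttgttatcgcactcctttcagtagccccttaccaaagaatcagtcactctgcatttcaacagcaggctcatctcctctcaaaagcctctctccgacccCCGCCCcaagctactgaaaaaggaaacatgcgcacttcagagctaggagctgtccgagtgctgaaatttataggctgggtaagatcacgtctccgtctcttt
Glrb, chr3:80913661-80913910, minus strand: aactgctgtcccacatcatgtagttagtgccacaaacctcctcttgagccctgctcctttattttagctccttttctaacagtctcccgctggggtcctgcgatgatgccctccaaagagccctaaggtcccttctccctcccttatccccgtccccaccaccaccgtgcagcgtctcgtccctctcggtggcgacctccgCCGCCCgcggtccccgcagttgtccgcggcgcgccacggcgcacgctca
Each window holds 1 GC box. The Glra2 window has 8 CG dinucleotides and the Glrb window 20, and Glra2 alone has a TATA box motif (TATAAA on either strand), which 12.4% of all windows hold. Over the 41 windows of the 34 members that matched the RefSeq table, 19 held a GC box and 5 a TATA box motif. These are counts of windows and not of genes. Both Gabra3 windows hold the TATA box motif and both Grm7 windows a GC box, and each pair overlaps. A match or its lack describes only these letters in this window.

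The other glycine alpha genes were close to 0. Glra3 was at 0.11 and 0.16 FPKM in the wild type and at 0.07 and 0.10 FPKM in the knockout. Glra1, the adult form of spinal cord and brainstem, was at 0.02 and 0.07 FPKM and listed at 0 in both knockout libraries, and Glra4 stayed between 0.05 and 0.08 FPKM.

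The 25 members under 1 FPKM included 13 GABA-A, 5 NMDA, 4 metabotropic and 3 glycine receptor genes. Without the filter, 5 of them were called lower, among them Gabrd, Gabrg3, Gabrq and Grin2c, and 3 higher (Gabra4, Gabrp, Grm5), against 14.8% lower and 24.4% higher of all genes in that fit. Gabrd, whose delta subunit serves extrasynaptic receptors, had the largest ratio among the members called in either fit. It was at 1.08 and 1.01 FPKM in the wild type and at 0.14 and 0.17 FPKM in the knockout, 6.74-fold lower on the means. With its transcript of 1921 bases and the estimated depth, these values correspond to about 37.7 and 35.0 fragments in the wild type and 4.9 and 5.9 in the knockout, so the ratio is imprecise. Gabrg3 was at 0.93 and 1.06 FPKM against 0.38 and 0.34 FPKM, and Gabrq at 0.74 and 0.64 against 0.44 and 0.34 FPKM. The rho genes Gabrr1 to Gabrr3, whose receptors are known from retinal bipolar cells, stayed at or under 0.36 FPKM in every library, and the cerebellar gene Gabra6 was listed at 0 in 3 of 4 libraries.

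**Figure D5:**
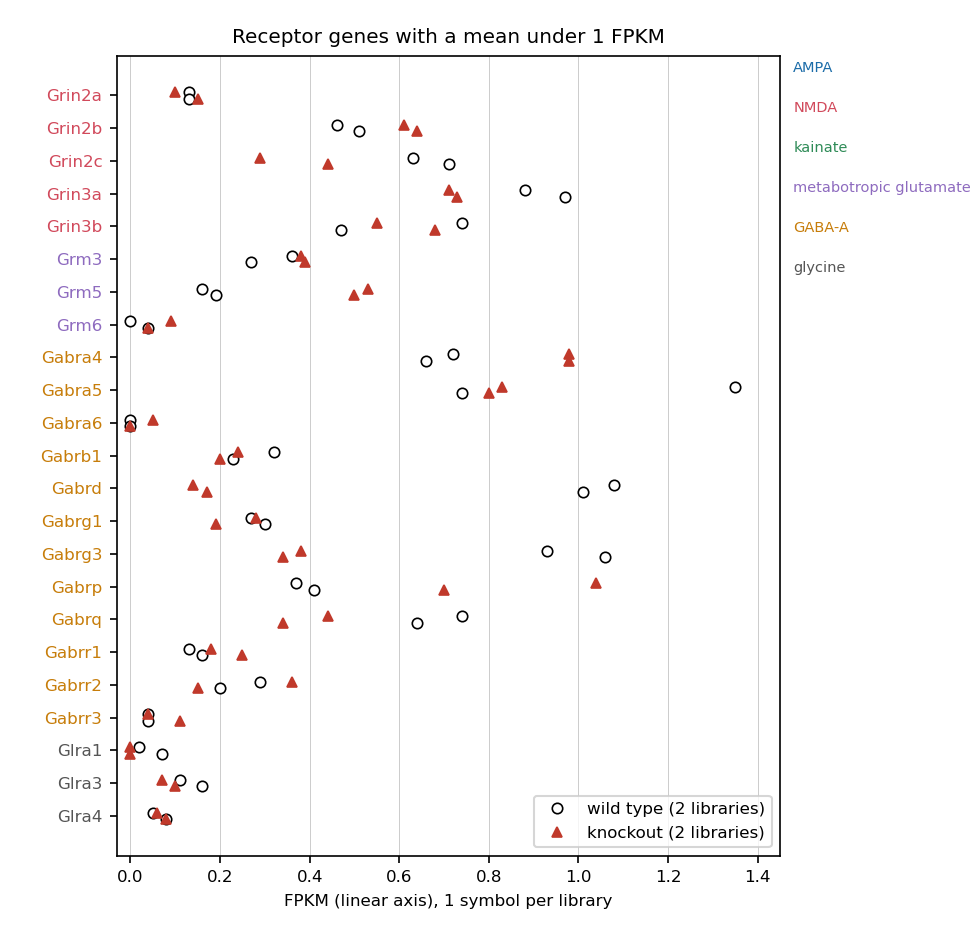
FPKM of 23 of the 25 receptor genes with a mean under 1 FPKM on a linear axis, 1 symbol per library (open circles, 2 wild-type libraries; triangles, 2 knockout libraries). Gabrd lies near 1 FPKM in the wild type and at 0.14 and 0.17 FPKM in the knockout, and Grm5 and Gabra4 have both triangles to the right of both circles.

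Partners of the receptors were counted in the same fit from lists drawn up by function, against the 33.5% higher and 21.1% lower of all genes tested. Among auxiliary subunits, which control traffic and gating, 7 of 13 tested genes fell and 2 rose. Lhfpl4, which holds GABA-A receptors at synapses, fell from 14.9 ± 0.36 to 9.76 ± 0.43 FPKM (−0.57). The AMPA auxiliary genes Cacng4 (−0.33), Cacng5 (−0.69) and Cacng2 (−0.48) fell too. The 2 that rose, Shisa9 (0.52) and Gsg1l (0.34), are also AMPA auxiliary genes. Shisa9 was at 0.95 and 0.81 FPKM in the wild type and reached the filter through its knockout values (1.49 and 1.93 FPKM). Of 17 tested genes for transmitter synthesis and transport 11 fell and 3 rose. The glial glutamate transporter gene Slc1a3 fell from 43.0 ± 0.70 to 28.3 ± 0.10 FPKM (−0.59), the GABA-degrading enzyme gene Abat by a similar amount (−0.50), and Gad1, for GABA synthesis, from 11.5 ± 0.23 to 7.64 ± 0.29 FPKM (−0.53). Gad2, the other gene for GABA synthesis on the list, rose from 10.5 ± 0.49 to 13.7 ± 0.78 FPKM (0.36, limma adjusted p = 0.0017), as did the transporter genes Slc1a7 (0.46) and Slc6a9 (0.14). Of 21 scaffold genes 4 fell, 3 rose and 14 did not pass. Dlgap3 (−0.52) and the neuroligin gene Nlgn1 (−0.52) fell, whereas the scaffold gene Dlg1 (0.44) and Nlgn2 (0.38), a neuroligin of inhibitory synapses, rose.

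Close relatives of the members went the same way or did not pass. The GABA-B subunit gene Gabbr2 fell from 4.38 ± 0.06 to 2.62 ± 0.18 FPKM (−0.57, limma adjusted p = 0.0006), while its partner Gabbr1 was at 37.3 ± 0.35 and 37.3 ± 0.64 FPKM. The delta glutamate receptor gene Grid1 fell (−0.55, limma adjusted p = 0.0095). Slc12a5, the chloride exporter that makes GABA inhibitory in mature neurons, fell from 7.74 ± 0.23 to 5.95 ± 0.13 FPKM (−0.33). The chloride importer gene Slc12a2, active in immature neurons, did not pass (12.1 ± 0.16 and 12.3 ± 0.19 FPKM).

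In the same libraries, most tested markers were lower in the pan-neuronal, ganglion cell, amacrine and horizontal cell, and bipolar cell lists, and photoreceptor markers were mixed. Over all genes tested, 33.5% were higher and 21.1% lower. Of 9 pan-neuronal genes 6 fell and 3 did not pass, with a median of −0.33 beside −0.30 for the 23 receptor genes. Their summed level was 516 and 524 FPKM in the wild type and 413 and 416 FPKM in the knockout. On the log2(FPKM + 1) scale, differences of 20 receptor genes lay within the range of the pan-neuronal genes, from −0.82 for Syt1 to 0.03. The 3 above it were Grik1, Grin2d and Gabre. The median of all genes tested (0.04) lay just above this range, and the share of all genes inside it was not computed. The log2(FPKM + 1) scale shrinks changes of the receptor genes more, since most were at lower levels than these markers. With a pseudocount of 0.1 Grin1 was at −1.01 and Glra2 at −0.97, so that no receptor gene lay below the range depends on the scale. Of retinal ganglion cell genes 8 of 10 fell and 1 rose (median −0.56), with a summed level of 291 and 297 FPKM against 186 and 193 FPKM. Of amacrine and horizontal cell genes 7 of 9 fell and 2 did not pass (median −0.26), with 173 and 175 against 109 and 108 FPKM. Of 6 bipolar cell genes 4 were tested, of which 3 fell and 1 rose (median −0.37), with 53.9 and 56.1 against 39.3 and 40.1 FPKM. Most of that sum in every library came from 1 gene, Trpm1, at 42.37 and 44.78 against 30.04 and 30.33 FPKM. The sum thus mainly follows Trpm1, and whether its RNA came from bipolar cells was not tested. The ON bipolar cell gene Grm6 stayed at or under 0.09 FPKM in every library. Of photoreceptor genes 5 of 8 fell and 3 rose (median −0.58), and their sum was 173 and 175 FPKM in the wild type and 181 and 180.0 FPKM in the knockout. Opn1sw (0.77), Prdm1 (0.33) and Crx (0.21) rose, and Nr2e3, Sag, Pde6b, Nrl and Rcvrn fell. Retinal progenitor genes, which mark dividing cells that precede all of these, were lower in 7 of 10 cases and higher in 1 (median −0.49), with 1320 and 1319 against 883 and 889 FPKM. Of 13 forebrain genes 8 were tested, of which 6 rose and 1 fell (median 0.49). The list summed to 18.3 and 19.2 FPKM in the wild type and to 28.3 and 29.4 FPKM in the knockout. Some that rose, Dlx5 among them (0.145 ± 0.08 to 2.32 ± 0.04 FPKM), averaged under 1 FPKM in the wild type. They reached the filter through their knockout values. The bone list was higher in 6 of 6 genes (median 1.985). The tissue behind the higher Dlx5 value was not tested. Of peripheral nerve and glia genes 4 of 6 rose and 1, Gfap, fell (median 0.35), with 50.6 and 48.6 against 48.9 and 50.1 FPKM. No gene of these lists was at 0 in all 4 libraries. The part of any of these cell types in the receptor values was not tested.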

How the data were processed

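Eye tissue of mouse embryos was measured in 4 libraries, 2 wild type and 2 knockout; groups and replicate numbers come from the sample titles. The authors deposited FPKM values per gene and library, per the file headers, and TPM values, which are the FPKM rescaled to 1 sum per library by the authors. Cufflinks, DESeq, HISAT2 and TopHat and the builds GRCh38 and GRCm38 appear in the submitters' processing notes, and the sources used here give no versions, roles, annotation or strand. FPKM depends on all fragments of a library, so a fall of abundant transcripts raises every other value.

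Values were taken as log2(FPKM + 1), and the 13887 genes averaging 1 FPKM or more were fitted with limma 3.58.1 under R 4.3.3, using a trended prior variance and genotype as the only term (2 residual and 4.89 prior degrees of freedom). Tests were two-sided, at 0.05 after Benjamini-Hochberg adjustment over all genes fitted. Code was tested on simulated data. Depth was estimated from the steps of low FPKM values of genes with 1 transcript (323 to 347 values per library), too few for a count test. It was the depth that best put these values on whole fragments, and 56.9% to 64.3% of them then lay within 0.15 of one. Chance gives 30% for a depth fixed in advance, and its share for a depth fitted to the same values was not computed. Intervals are 95%. Alternatives were a pseudocount of 0.1, no filter, TPM, scaling without crystallin and haemoglobin genes, median-of-ratios scaling, a replicate block and each library left out. Positions and exon overlaps come from GENCODE on GRCm38, which matched all 48 members. Members and lists were chosen with earlier results of these data known. All members could be named, with Anp32b, Pax6 and up to 4 genes past the threshold with the lowest p of each list; further list genes, among them relatives that did not pass, were named after their values were seen. Python 3.11.15 with numpy 2.4.6, pandas 2.3.3 and matplotlib 3.10.9 made the tables and figures. A few genes, members among them, are counted but not reported by name here or drawn in the figures.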

Additional observations from a re-analysis of the deposited data

How the results depend on the processing

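The 12 falls and 2 rises among receptor genes were recomputed under 10 alternatives. With a pseudocount of 0.1, TPM, either rescaling or no filter, no called member lost its call. TPM moved the median of all tested genes from 0.04 to 0.16 and that of the members from −0.30 to −0.20, and cut all genes called lower from 2932 to 1667. Members that were not called changed sign with TPM, namely Gabra3 (0.0631), Grik4 (0.0515), Gria3 (0.0243) and Grik5 (0.109), and Glrb did so with libraries scaled without crystallin and haemoglobin genes (−0.0660) and with median-of-ratios scaling (−0.0416). With no filter, more members entered: 5 were higher and 17 lower, with 1 metabotropic and 3 GABA-A genes higher, and 2 NMDA and 6 GABA-A genes lower.

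Leaving out 1 library at a time gave 10 to 12 receptor genes lower and 2 to 3 higher. AMPA genes called lower ranged from 1 to 3 and kainate genes called higher from 0 to 1. Over these fits the difference ranged from −0.107 to 0.0150 for Gabra3, from −0.0352 to 0.0386 for Glrb and from −0.0433 to 0.0215 for Grik5, none of them called. The lost calls were Grm8 and, without knockout replicate 1, Gria1; an arm left with 1 library is assumed to vary like the other. Deviations of libraries with the same replicate number correlated at 0.0439 over genes, so the numbers were not taken to pair the samples. With the replicate block 12 receptor genes were lower and 2 higher, and over all genes 4781 were higher and 3047 lower. Depth limits the members under 1 FPKM most.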
